A study of Mus musculus with 4 samples.

Results

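The genes described here encode the extracellular matrix of the developing neocortex, the integrins that bind it and the proteases and inhibitors that remodel it. They were selected by gene symbol: collagens, laminins, fibulins, fibrillins, fibronectin, tenascins, the Sparc and lysyl oxidase families, small leucine-rich proteoglycans, integrin subunits, and the Mmp, Timp, Adam and Adamts families, without Col6a1. A value on at least 3 of the 4 arrays was required. Of 107 probes with a matching symbol, 82 met this and stood for 79 genes, out of 6856 probes on the array. A further 24 had no value on any array, among them those of Col3a1, Lama5, Itga4, Itgb2, Fbln2 and Loxl2. Just inside the requirement were 7 members with 3 values, and just outside was Tnr, the tenascin of perineuronal nets, with -2.50 on replicate 2 and 1.61 on replicate 4 only.

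The matrix of the embryonic cortex is sparse between neurons and dense in the basement membranes of the pial surface and the vessels, where laminin trimers and type IV collagen form sheets. Radial glia anchor their endfeet to the pial sheet through integrins, which are pairs of an alpha and a beta subunit. Fibrillar collagens belong mainly to the meninges and vessel walls. Metalloproteases of the Mmp and Adamts families cut matrix proteins, Timp proteins inhibit them, and Adam proteins at the cell surface either shed the outer part of membrane proteins or serve in adhesion without cutting.

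Each of the 4 arrays compared neocortex RNA of a munc18-1 null mouse embryo sample with 1 pool of normal neocortex RNA, made from 4 control replicates, all on the C57BL/6 background at embryonic day 16. Munc18-1 is a neuronal protein required for vesicle fusion, and the labels call the mutants synaptically silent. The null RNA was in Cy3 on replicate 1 and in Cy5 on replicates 2, 3 and 4. The source name of replicate 1 reads embryonic day 14, against day 16 in its other labels. The null allele is present in all cells of the embryo, so neurons, vessels and meninges all carry it. The labels do not say how many embryos entered a sample. The values are the authors' log ratios, whose base is not stated. They were taken as log2, and every fold given here rests on that. Which channel was the numerator is not given in the sources used here. Signs are printed as deposited, and a positive value cannot be read as more or less RNA in the null. Replicates 2 to 4 ran the same way and carry the tests, and replicate 1 is given beside them. Replicate 1 may need its sign turned, so the same sign on all 4 arrays as deposited does not by itself show that they agreed.

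As a check of the labelled tissue, 12 of 16 listed genes of neocortical neurons and progenitors had values, with means of -0.06, -0.11 and -0.06 on replicates 2, 3 and 4. Single genes of that list went both ways: limma gave an unadjusted p under 0.05 to 4 of the 12 (33.3%, against 9.67% of all probes), with Emx1 at -0.63, Cux1 at -0.49 and Neurod2 at -0.44, and Dcx at 0.40. None had an adjusted p under 0.05. A ratio does not show a gene's level, so no marker can be called absent or abundant from these values. In whole tissue, fewer cells of a type and less RNA per cell cannot be told apart.

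No member passed an adjusted p of 0.05 in limma, and neither did any of the 5720 probes tested (0%). On replicates 2 to 4, 76 members of 74 genes could be tested. At an unadjusted p under 0.05 limma listed 9 of them, 11.8%, against 9.67% of all probes. All 9 were positive, beside 5.61% of all probes, and no member was negative at that mark, beside 4.06% of all probes. Negative members did appear in other fits, 3 of 13 listed without replicate 3, 2 of 9 without replicate 4 and 3 of 18 with array weights. Those fits listed 9.5%, 10.9% and 18.7% of all probes, both signs together. The negative share over all probes was not counted in them, so these negative members have no background beside them. The 9 stood for 8 genes: the collagens Col5a1, Col6a3 (with both of its measured probes) and Col19a1, the laminin chain Lama3, the integrin Itga8, and Adam1a, Adam3 and Adam9. Their adjusted p in limma lay between 0.450 and 0.510. Without replicate 2 only Adam1a and Adam3 were listed, 2 probes in place of 9. The share of all probes listed fell as well, to 4.09% from 9.67%. The labels do not state that the samples are of separate animals, so the p-values measure the spread between these samples.

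Over the tested members, 43 means were positive and 33 negative, with a median of 0.068 against -0.016 for all probes, of which 2712 were positive and 3008 negative. On all 3 arrays 19 members were positive (25%, against 16.3% of all probes) and 6 were negative (7.89%, against 17.3%). A mean beyond 1 in size was reached by 1 member, Adam3 (1.32%, against 0.944% of all probes). The 95% interval of the median member reached 0.44 to either side of its mean, which is 1.36-fold, and the interval was narrower for members whose arrays agreed more closely. The arrays disagreed more over members than over the array as a whole: the median gap between the highest and lowest of the 3 values was 0.65 for members and 0.51 for all probes.

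**Figure D1:**
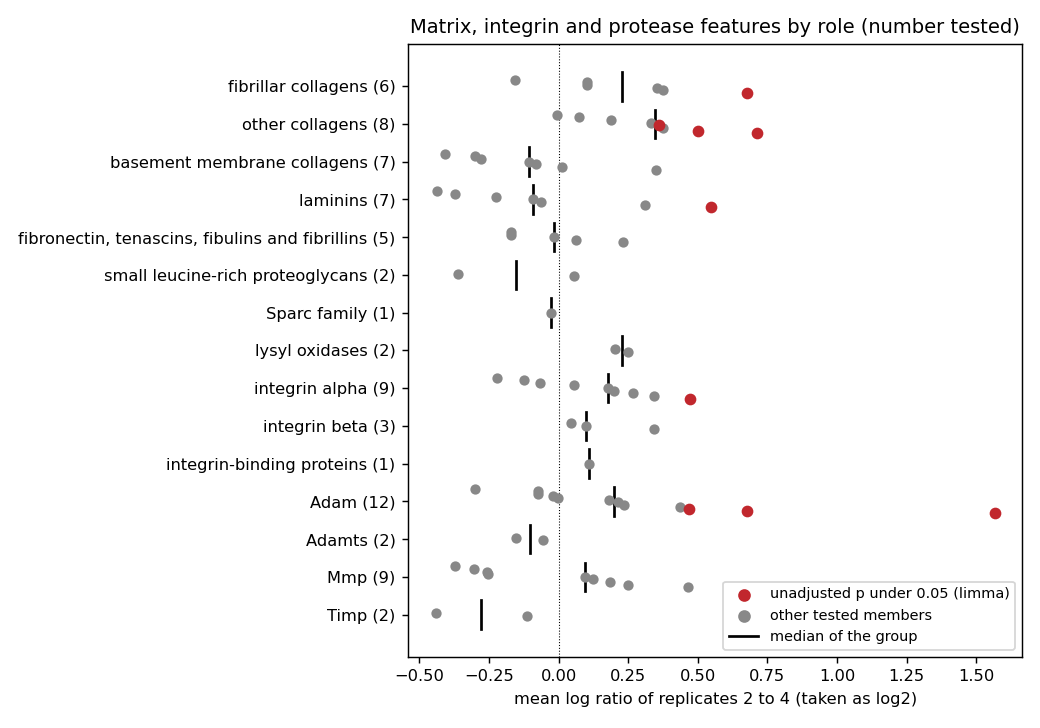
Mean log ratio of replicates 2 to 4 (horizontal axis, taken as log2, signs as deposited) for each of the 76 tested members, grouped by role, with the group median as a black bar. The 9 members at an unadjusted p under 0.05 are in red and all lie to the right of 0, with Adam3 furthest out at 1.57.

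Fibrillar collagens, which form the banded fibres of connective tissue, had 5 of 6 tested means positive, with a median of 0.23. Col5a1, a chain of type V collagen that starts fibril assembly, had 0.79, 1.17 and 0.073 on replicates 2, 3 and 4, with -0.56 on replicate 1. Replicate 4 was close to 0 and replicate 1 had the other sign. The mean was 0.68 ± 0.56 (SD, n = 3), 1.60-fold in size, with an adjusted p of 0.473 in limma. The other type V chains were Col5a3 at 0.38 ± 0.33 (SD, n = 3), positive on all 4 arrays, and Col5a2 at 0.10 ± 0.23 (SD, n = 3). Col1a1, the main chain of type I collagen of the meninges, had 0.55, -0.75 and -0.26 on replicates 2, 3 and 4, and -0.49 on replicate 1. Its sign depended on the array, and its mean of -0.16 ± 0.66 (SD, n = 3) had a 95% interval from -0.80 to 0.49.

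The other collagens, which link fibrils, span membranes or form beaded filaments, had 7 of 8 means positive and a median of 0.35. Col6a3, a chain of the beaded type VI collagen, was measured by a pair of probes. Probe 305 had 1.22, 0.30 and 0.61 on replicates 2, 3 and 4, and probe 369 had 0.43, 0.94 and 0.13. Both were positive on these 3 arrays, with means of 0.71 ± 0.47 and 0.50 ± 0.41 (SD, n = 3) and adjusted p of 0.473 and 0.504 in limma, but they ranked the arrays differently. On replicate 1 they took opposite signs, at -0.93 and 0.37, a gap of 1.31. Col19a1, a collagen with an interrupted triple helix that some neurons make, had 0.49, 0.33 and 0.26, a narrow range, and -0.78 on replicate 1. Its mean was 0.36 ± 0.12 (SD, n = 3), with an adjusted p of 0.510 in limma. Col9a3, a chain of a collagen that decorates fibrils, had 0.33 ± 0.35 and its partner Col9a1 0.38 ± 1.18, the latter with 1.17, 0.94 and -0.98 on replicates 2, 3 and 4. The collagens of membranes and fibril surfaces, Col12a1, Col13a1 and Col14a1, had means of -0.0076, 0.19 and 0.073, and all were below -0.4 on replicate 1.

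A second gene with a pair of probes was Col11a1, a chain of a fibrillar collagen. Probe 1689 had 0.66, 0.62 and -0.22 on replicates 2, 3 and 4, and probe 6746 had -3.12 on replicate 2, no value on replicate 3 and -0.04 on replicate 4. The probes differed by 3.78 on replicate 2, so Col11a1 has no settled value here. For Tnc, tenascin C of the radial glial matrix, the probes were closer, with means of -0.17 ± 0.35 and -0.17 ± 0.49 (SD, n = 3) and a largest gap of 0.39 on any array.

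Type IV collagen, the sheet-forming collagen of basement membranes, leaned the other way on replicates 2 and 3. Its chains are encoded by genes that lie head to head in pairs and are transcribed away from each other. The starts are shown here because the genes of such a pair start near each other on opposite strands. In the RefSeq promoter table (GRCm38.p6), the start of Col4a1 on the minus strand and that of Col4a2 on the plus strand enclose 22 bases, so each gene's upstream sequence runs into the other gene. Those 22 bases, which lie at or after the start of both genes, are in capitals in the stretch chr8:11312801-11312830, printed on the plus strand. Col4a5 and Col4a6 start 1343 bases apart on chromosome X, and the 120 bases before each start are printed on the gene's own strand, at chrX:141475299-141475418 (plus) for Col4a5 and chrX:141474077-141474196 (minus) for Col4a6. Capitals in the sequences of Col4a5 and Col4a6 mark a GC box, GGGCGG, or its reverse complement CCGCCC.
Col4a1 and Col4a2: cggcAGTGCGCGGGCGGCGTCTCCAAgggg
Col4a5: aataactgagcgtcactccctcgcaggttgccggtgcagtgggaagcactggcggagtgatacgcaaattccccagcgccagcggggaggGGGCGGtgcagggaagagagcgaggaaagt
Col4a6: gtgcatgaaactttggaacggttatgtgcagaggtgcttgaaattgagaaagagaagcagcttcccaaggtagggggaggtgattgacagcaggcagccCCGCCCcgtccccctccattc

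Promoter windows of 300 bases, 250 before and 50 after the start, were found for 48 of the 79 member genes, 57 windows in all. The GC box in either direction was in 31 of these 57 windows (54.4%), against 35.7% of all 32851 windows of that length in the table, which cover genes of every kind. CCAAT, or its reverse complement ATTGG, was in 17 of the 57 (29.8%), against 37.4% of all. The windows of Col4a1, Col4a2, Col4a5 and Col4a6 all held a GC box, and all but that of Col4a6 held CCAAT. The windows of Col4a1 and Col4a2 overlap in part, and both hold the GC box of the stretch printed above, so that match is not separate. Whether they also share a CCAAT match was not examined. A match of letters is no evidence of a bound site.

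Col4a1 had -0.33, -0.68 and 0.10 on replicates 2, 3 and 4, with -0.53 on replicate 1. Col4a2 had -0.23, -0.61 and 0.0092, with -0.24 on replicate 1. The head-to-head neighbours followed each other across the arrays, with a largest gap of 0.28, which is below the largest gap between the probes of Tnc. Their means were -0.30 ± 0.39 and -0.28 ± 0.31 (SD, n = 3), with adjusted p of 0.639 and 0.634 in limma, and replicate 4 stood at or above 0. Col4a5 and Col4a6 had close values on replicates 1, 2 and 4, and on replicate 3 they parted, at 0.64 and -0.90, a gap of 1.54. Whether the distance between starts bears on how closely a pair runs together was not tested. Col4a6 had the lowest p of the group on replicates 2 to 4, with a mean of -0.41 ± 0.46 (SD, n = 3) and an adjusted p of 0.571 in limma. Over the basement membrane collagens, which also include Col15a1 and Col18a1, 5 of 7 means were negative, with a median of -0.10. Col18a1, the source of endostatin, had 0.35 ± 0.41 (SD, n = 3) and was the highest of them.

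**Figure D2:**
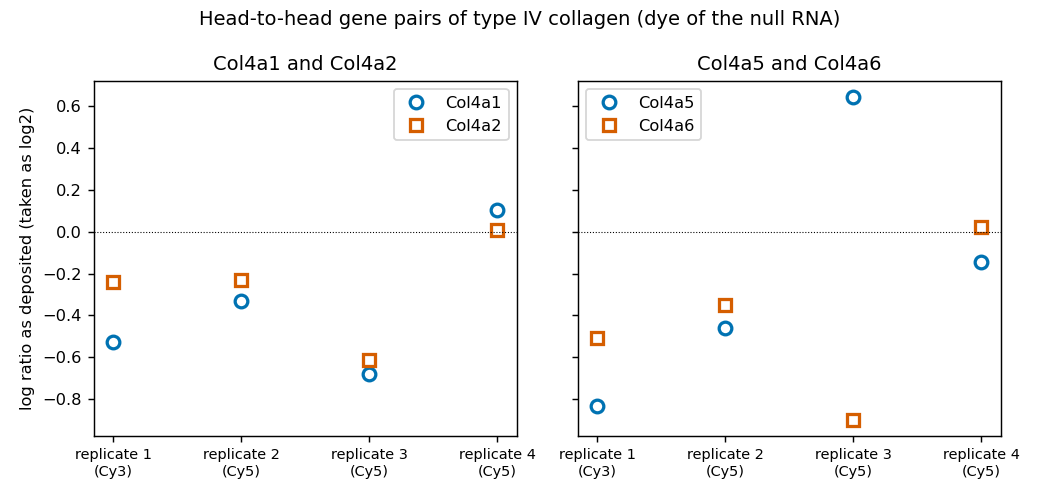
Log ratio as deposited (vertical axis, taken as log2) of the type IV collagen gene pairs on each of the 4 arrays, 1 point per gene and array. Col4a1 and Col4a2 lie within 0.28 of each other on every array, and Col4a5 and Col4a6 part on replicate 3 only, at 0.64 and -0.90.

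Laminins, the trimers of an alpha, a beta and a gamma chain that organise basement membranes, had 5 of 7 means negative and a median of -0.092. Lama3, an alpha chain known mainly from epithelia, was the exception at an unadjusted p under 0.05, with 0.96, 0.27 and 0.41 on replicates 2, 3 and 4. It had no value on replicate 1. Its mean was 0.55 ± 0.36 (SD, n = 3), with an adjusted p of 0.473 in limma. Lamb1 and Lamc1, which pair in the main laminins of the pial basement membrane, had 0.31 ± 0.32 and -0.062 ± 0.40, and Lama2, the alpha chain of vessel and muscle laminin, had -0.092 ± 0.22 (SD, n = 3). The 95% intervals of all 3 included 0, and differences between chains were not tested. Lamb2, the beta chain of vessel and synaptic laminins, was negative on all 4 arrays, with -0.54, -0.053, -0.72 and -0.35 on replicates 1 to 4. Lama4, an endothelial alpha chain, ranged from -1.44 on replicate 3 to 0.28 on replicate 4. Lama1, an alpha chain of early embryonic basement membranes, was not tested, with -3.45 on replicate 1, -2.82 on replicate 2, no value on replicate 3 and 0.04 on replicate 4.

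Vessel markers were on the negative side of the same arrays: 11 of 15 measured genes of that list had a negative mean. Means ran from -1.41 to 0.20 over the list. The list mean was -0.22, -0.44 and -0.18 on replicates 2, 3 and 4 and -0.16 on replicate 1. Without Sox17, the gene furthest from 0, it was -0.19, -0.30 and -0.11, and -0.19 on replicate 1. At an unadjusted p under 0.05 limma listed 5 of the 15 probes, all negative (33.3%, against 4.06% of all probes). Of meningeal markers, 7 of 8 were negative, with list means of -0.41, -0.025 and -0.41 on replicates 2 to 4 and -0.058 on replicate 1. These means rested in large part on Ptgds, and without it they were -0.30, 0.094 and -0.18 on replicates 2 to 4 and 0.20 on replicate 1. Of the 8 meningeal probes, limma listed 2 at an unadjusted p under 0.05, both negative (25%, against 4.06% of all probes). Genes over all lay near 0 on each array. The part of vessel or meningeal tissue in the values of type IV collagen, the laminins and the fibrillar collagens was not tested. Col4a1 had -0.33, -0.68 and 0.10 and Col4a2 -0.23, -0.61 and 0.0092 on replicates 2, 3 and 4. They were below 0 like the vessel list on replicates 2 and 3, but not on replicate 4. On replicate 1, as deposited, Col4a1 had -0.53, Col4a2 -0.24 and the vessel list -0.16.

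Fibronectin, the tenascins, fibulins and fibrillins lay near 0, with means from -0.17 to 0.23 over 5 probes. Fn1, the fibronectin of vessels and meninges, had 0.040, -0.038 and 0.19 on replicates 2, 3 and 4 and 0.023 on replicate 1. The 4 values were close together. Its mean of 0.064 had a 95% interval from -0.29 to 0.42. Fbn2, a microfibril protein of embryonic tissue, was positive on replicates 2 to 4 at 0.31, 0.27 and 0.10, and -0.50 on replicate 1. Sparc, a collagen-binding protein secreted by glia and endothelium, had -0.14, 0.0051 and 0.055, and -0.41 on replicate 1.

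Of the small proteoglycans, Dcn and Bgn were measured. Dcn, decorin of the meninges, had -0.39, -0.57 and -0.13 on replicates 2, 3 and 4 and 0.13 on replicate 1, a mean of -0.36 ± 0.22 (SD, n = 3) with an adjusted p of 0.525 in limma. It was the lowest in p of all members with a negative mean. Bgn, biglycan, had -0.16, 0.14 and 0.19, and -0.73 on replicate 1, a mean of 0.056 ± 0.19 (SD, n = 3) with a 95% interval that included 0. The lysyl oxidases, which cross-link collagen and elastin, were positive on all of replicates 2 to 4: Lox had 0.28, 0.17 and 0.16, and Loxl1 had 0.56, 0.10 and 0.090. Neither passed, with adjusted p of 0.664 and 0.655 in limma.

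Integrin subunits had 9 of 12 means positive, 6 of 9 among the alpha subunits and 3 of 3 among the beta subunits, with medians of 0.18 and 0.10. Itga8, the alpha subunit that binds nephronectin and other RGD ligands, had 0.30, 0.33 and 0.78 on replicates 2, 3 and 4, and -0.12 on replicate 1. Its mean was 0.47 ± 0.26 (SD, n = 3), 1.39-fold in size, with an adjusted p of 0.478 in limma. Its partner Itgb1, the beta subunit common to most matrix-binding integrins, had 0.50, -0.082 and 0.61, and -0.18 on replicate 1. Replicate 3 broke the pattern of Itgb1, and its mean of 0.34 ± 0.37 (SD, n = 3) had an adjusted p of 0.596 in limma.

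The laminin receptors of radial glial endfeet lay closer to 0. Itga3 had 0.084, -0.69 and 0.24 on replicates 2, 3 and 4, and Itga6 had -0.15, 0.16 and 0.15. Itga5, the fibronectin receptor subunit, had 0.27 ± 0.19 (SD, n = 3). Itgb3 and Itgb6, beta partners of Itgav, had 0.10 ± 0.17 and 0.046 ± 0.19 (SD, n = 3), and Itga2b, the platelet partner of Itgb3, had 0.20 ± 0.37 (SD, n = 3). Itgav, which pairs with several beta subunits in radial glia and vessels, stayed between -0.13 and 0.024 on all 4 arrays, with the smallest SD of the tested members, 0.063 over replicates 2 to 4. Its 95% interval ran from -0.41 to 0.28. Among integrins of leukocytes, Itgal and Itgax had the widest ranges of all integrin subunits. Itgal had -0.16, -0.67 and 1.36 on replicates 2, 3 and 4, Itgax had -0.0087, 1.28 and -0.25, and Itgam, carried by microglia, had -0.46, 0.24 and -0.44. Markers of microglia and leukocytes had list means of 0.34, 0.34 and 0.36 on the same arrays and 0.074 on replicate 1, with 9 of 11 genes positive. At an unadjusted p under 0.05 limma listed 5 of the 11 probes, all positive (45.5%, against 5.61% of all probes). The part of these cells in the values of the leukocyte integrins, Adam8 and Mmp12 was not tested. Itgb1bp1, which the symbol rule brought in, encodes a protein that binds the tail of Itgb1 and is no integrin. It had 0.11 ± 0.32 (SD, n = 3).

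The Adam family gave 3 of the 9 probes at an unadjusted p under 0.05, and 7 of its 12 tested means were positive. Adam1a, a subunit of the sperm protein fertilin, had the smallest p of all members, 0.00354 unadjusted, and 0.450 adjusted in limma. It had 0.55, 0.73 and 0.75 on replicates 2, 3 and 4, and -0.00073 on replicate 1. These 3 arrays agreed closely, with a mean of 0.68 ± 0.11 (SD, n = 3), 1.60-fold in size, while replicate 1 sat at 0. Adam1a has a close paralogue, Adam1b, and whether the probe also bound its RNA was not tested.

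Adam3, a sperm adhesion protein, had the largest mean and the largest SD of the tested members. It had 0.10, 3.12 and 1.47 on replicates 2, 3 and 4, and 1.52 on replicate 1, all positive as deposited. Its mean was 1.57 ± 1.51 (SD, n = 3), with a 95% interval from 0.25 to 2.88 and an adjusted p of 0.473 in limma. Replicate 3 decided much of it: without that array the mean was 0.79. With replicate 1 turned and a term for dye in the fit, the mean was 0.024. Adam2, the other fertilin subunit, had 0.21 ± 0.38 (SD, n = 3), and Adam5, another testis gene, had -0.80, 1.40 and -0.13 on replicates 1, 3 and 4 and was not tested.

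Among Adams that shed membrane proteins, Adam9 was positive on all 4 arrays, with 0.48, 0.22 and 0.71 on replicates 2, 3 and 4 and 0.20 on replicate 1. Its mean was 0.47 ± 0.24 (SD, n = 3), 1.38-fold in size, with an adjusted p of 0.473 in limma. With replicate 1 turned and a term for dye in the fit, the mean was 0.13. Adam10, the sheddase of Notch and the amyloid precursor, had 0.71, -0.041 and 0.64, and -0.36 on replicate 1. Adam17, the sheddase of tumour necrosis factor, had 0.0031, 0.34 and 0.37, and -0.40 on replicate 1. The means of Adam10 and Adam17 were 0.44 ± 0.41 and 0.24 ± 0.20 (SD, n = 3), and both intervals included 0.

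The Adams of neurons that lack protease activity had means of -0.30 (Adam22), -0.00095 (Adam23) and -0.020 (Adam11). Those of Adam23 and Adam11 were close to 0, and all 3 95% intervals included 0. The sign of each gene differed between arrays. Adam22, the synaptic receptor of Lgi1, had -1.36, 0.78 and -0.33 on replicates 2, 3 and 4, Adam23, its relative, had -0.45, 0.23 and 0.22, and Adam11 had -0.10, -0.24 and 0.28. All 3 were negative on replicates 1 and 2, and none was negative on all 4 arrays. Adam8, an Adam of leukocytes, ranged from -1.56 on replicate 3 to 0.96 on replicate 2. Adam15 was not tested, with -2.89 on replicate 3, 0.87 on replicate 4 and -1.26 on replicate 1. Of the Adamts proteases, Adamts7 had -0.15 ± 0.11 and Adamts5, which cuts the proteoglycan aggrecan, -0.055 ± 0.17 (SD, n = 3).

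Matrix metalloproteases had 5 of 9 means positive, none at an unadjusted p under 0.05. The secreted enzymes had 4 of 5 positive and the membrane-type enzymes 3 of 4 negative, a split of few genes that was not tested. Mmp12, the elastase of macrophages, had 0.36, 1.03 and 0.0063 on replicates 2, 3 and 4, and 0.20 on replicate 1, a mean of 0.47 ± 0.52 (SD, n = 3) with an adjusted p of 0.554 in limma. Mmp9, the gelatinase tied to synaptic remodelling, was positive on all 4 arrays at a low size, 0.13, 0.39 and 0.23 on replicates 2, 3 and 4 and 0.24 on replicate 1. The other gelatinase, Mmp2, had 0.18 ± 0.20 (SD, n = 3). Mmp14, the membrane enzyme that activates it, was negative on all 4 arrays, between -0.48 and -0.026. Mmp24, a membrane enzyme of neurons, had -0.18, -0.81 and 0.083 on replicates 2, 3 and 4 and -1.05 on replicate 1. The spread of Mmp11 was wider, with -0.11, -1.15 and 0.14, while Mmp3, stromelysin, stayed between -0.0068 and 0.23 on all 4 arrays. Mmp16 and Mmp17, both of membrane type, had 0.12 ± 0.24 and -0.26 ± 0.23 (SD, n = 3), and the collagenase Mmp13 was not tested.

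The inhibitors Timp2 and Timp3 were below 0 on replicates 2 and 3 and above 0 on replicate 4. Timp2, the most widespread inhibitor in brain, had -0.21, -0.45 and 0.32, and Timp3, which binds to the matrix, had -0.53, -1.12 and 0.33 on the same arrays. On replicate 1 they had -0.33 and -0.93. Their means of -0.11 ± 0.40 and -0.44 ± 0.73 (SD, n = 3) had 95% intervals that included 0. Timp4, which had no value on replicate 3 and was not tested, had -1.31, -0.37 and 0.44 on replicates 1, 2 and 4. All 3 inhibitors thus had a negative value on replicates 1 and 2 and a positive one on replicate 4. Of all members, 77.8% were below 0 on replicate 1 and 45.6% on replicate 2, and 74.4% were above 0 on replicate 4.

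**Figure D3:**
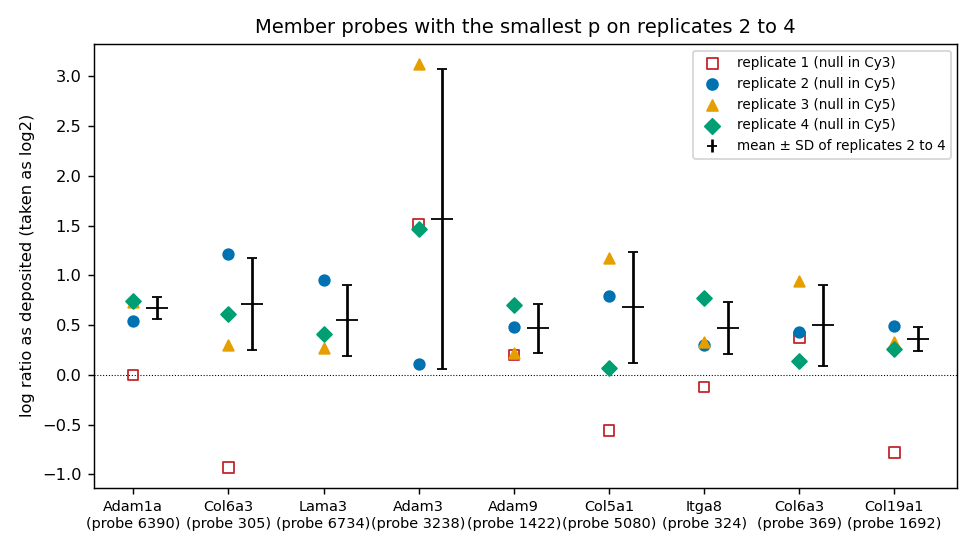
The 9 member probes at an unadjusted p under 0.05 on replicates 2 to 4, in order of p, with the log ratio as deposited (vertical axis, taken as log2) on each array and the mean ± SD of replicates 2 to 4 in black. All values of replicates 2 to 4 are above 0, and replicate 1 (open squares) lies between -0.93 and 1.52, below 0 for 5 of the 8 probes it measured.

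Replicate 1 was the array on which the members stood furthest from the rest. Of 81 members with a value there, 63 were below 0, or 77.8%, against 49.8% of all probes on that array. The median member was at -0.39, while the median of all probes was 0.0017. On replicates 2, 3 and 4 the median member was at 0.066, -0.032 and 0.15, against -0.031, -0.0034 and 0.0044 for all probes. On replicate 4, 61 of 82 members were above 0, or 74.4%, against 50.7% of all probes on that array. These are descriptions of single arrays without a replicate of the same dye orientation for replicate 1, and dye, array and the day 14 in its source name cannot be told apart there.

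The shift on replicate 1 ran through most roles. Collagens were below 0 for 19 of 22 probes, with a median of -0.50, integrins for 11 of 12, with a median of -0.43, and Adam genes for 11 of 14, with a median of -0.43. All 7 basement membrane collagens and all 3 Timp genes were below 0. The Mmp genes were the exception, with 4 of 10 below 0 and a median of 0.12. The lowest member was Lama1 at -3.45, followed by Col15a1, a collagen of basement membranes next to vessels and muscle, at -1.64. Among 60 other genes of the matrix, such as proteoglycans, thrombospondins and focal adhesion proteins, 38 were below 0 on replicate 1, with a median of -0.19. The vessel list had 10 of 15 below 0 there and the meningeal list 3 of 8, while 3 of 12 genes of neocortical neurons and progenitors were.

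**Figure D4:**
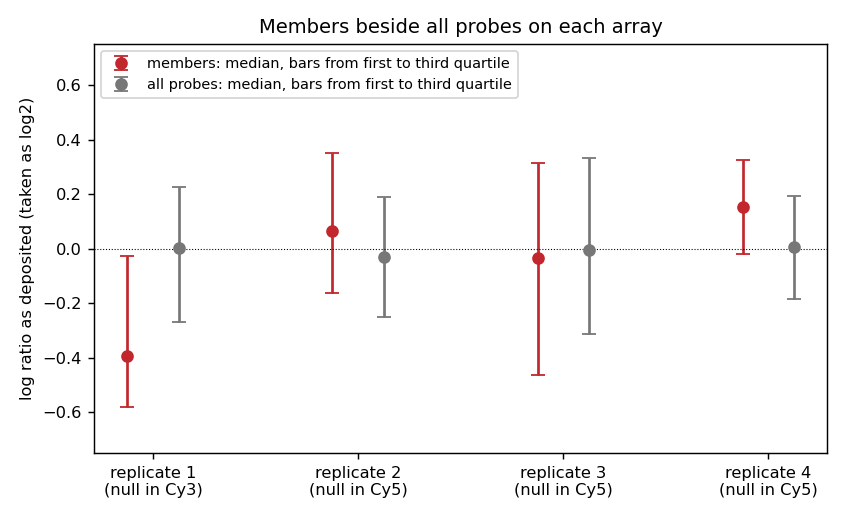
Median (points) and interquartile range (bars) of the log ratio as deposited (vertical axis, taken as log2) on each array, for members in red and all probes in grey. The members' median is at -0.39 on replicate 1 and 0.15 on replicate 4, where all probes have 0.0017 and 0.0044.

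How replicate 1 joins the others depends on the unknown numerator. Replicate 1 needs its sign turned if the same dye was always on top of the ratio, and keeps it if the null was always on the same side. With replicate 1 turned, 9 of 75 members had an unadjusted p under 0.05 in limma, all positive (12%, against 5.29% of all probes), and none was negative (against 3.15%). The 9 probes were Col5a1, Col6a3 (probe 305), Col9a3, Col19a1, Fbn2, Itga5, Itga8, Adam1a and Adam10, and 5 of them were also among the 9 of replicates 2 to 4. Col6a3 (probe 305) then had 0.77 ± 0.40 (SD, n = 4), with an adjusted p of 0.424 in limma. Col19a1 had 0.47 ± 0.23 and Col5a1 0.65 ± 0.46 (SD, n = 4), both with an adjusted p of 0.522 in limma.

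With replicate 1 as deposited, 5 members were positive at that mark (6.67%, against 3.48% of all probes) and 4 were negative (5.33%, against 3.64%). The positive ones were Adam1a, Adam3, Adam9, Col5a3 and Col6a3 (probe 369), and the negative ones Mmp24, Timp3, Col4a6 and Lamb2. Adam3 then had 1.55 ± 1.23 (SD, n = 4). The median member was at 0.14 with replicate 1 turned and at -0.023 with it as deposited. Adam1a was listed under both signs of replicate 1, at 0.51 ± 0.35 (SD, n = 4) in each, because its value there was close to 0.

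**Figure D5:**
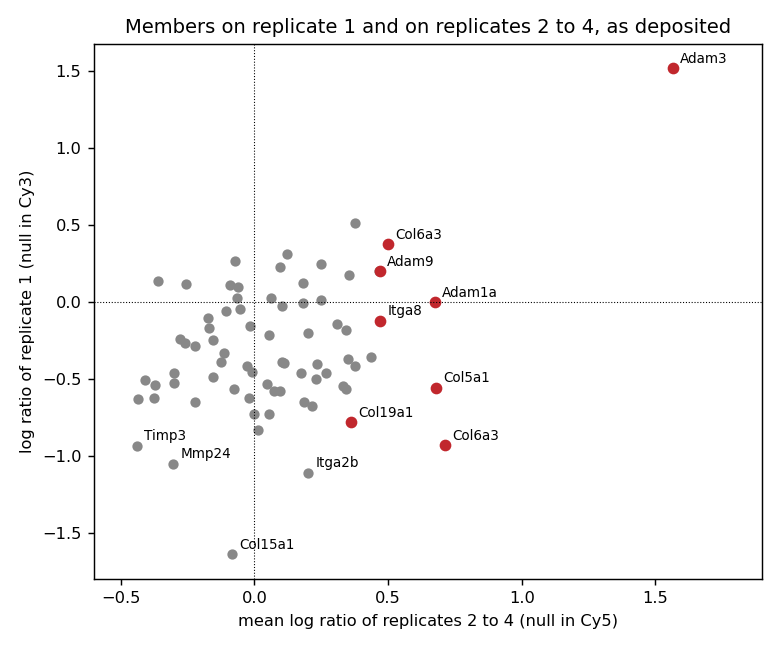
Log ratio of replicate 1 (vertical axis) against the mean log ratio of replicates 2 to 4 (horizontal axis), both as deposited and taken as log2, for the 75 tested members with a value on all 4 arrays. Red points are members at an unadjusted p under 0.05 on replicates 2 to 4, and most points lie below the horizontal line at 0.

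Of the 95 listed genes of proteoglycans, glycoproteins, matrix-modifying enzymes and focal adhesions that are no members, 60 were measured on replicates 2 to 4, 26 with a positive and 34 with a negative mean, and their median was -0.079. Over all probes tested, 2712 means were positive and 3008 negative, with a median of -0.016. Most probes of these other matrix genes with a low p were positive. At an unadjusted p under 0.05 limma listed 8 of their 63 probes as positive (12.7%, against 5.61% of all probes) and 3 as negative (4.76%, against 4.06%), and 0 had an adjusted p under 0.05. The furthest out was Gpc6, a glypican of the cell surface that astrocytes also secrete, with 1.43, 0.73 and 2.18 on replicates 2, 3 and 4 and -0.33 on replicate 1. Its mean was 1.45 ± 0.73 (SD, n = 3). On the other side stood Tln1, talin, which links integrins to actin, with -0.55, -1.68 and -0.22, a mean of -0.82 ± 0.77 (SD, n = 3).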

How the data were processed

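The authors' deposited table held processed log ratios, 1 column for each of 4 two-colour arrays. The base is not stated. With sizes of up to 6.85, large for log10 ratios, the deposited ratios were read as log2, and folds rest on this. Background correction, normalization and numerator: not given in the sources used here. No intensities were used, so neither saturation nor the distance from background is known. No further value columns were present (0 unused). Column medians lay between -0.031 and 0.0044.

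Probe symbols came from the platform annotation, under which 6269 probes had 1 symbol, 6 had several and 581 were unnamed. The Entrez IDs of all 82 members were in the RefSeq gene table (GRCm38.p6), which changed 0 symbols. Mean log ratios of replicates 2 to 4 were tested against 0 with limma 3.58.1 in R 4.3.3 (lmFit, eBayes), two-sided, over the 5720 probes with a value on all 3 arrays, with Benjamini-Hochberg adjustment over these. The control pool is 1 sample, so its own spread is not in the tests, and the number of arrays limits the precision. The steps were tested on simulated data.

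Members and lists were chosen with earlier results of these data known. Named with values on every array were all members at an unadjusted p under 0.05, the smallest p in each role, and well-known matrix genes listed in the design. Other members named, Gpc6 and Tln1 were chosen after their values were seen. Of the marker lists, choroid plexus had 3 of 6 measured genes positive, and blood 1 of 5. At an unadjusted p under 0.05 limma listed 3 of the 6 choroid plexus probes (50%), 2 positive and 1 negative. It listed 2 of the 5 blood probes (40%), both negative. The share over all probes was 9.67%, so these lists also lay above it, like the other marker lists.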

Additional observations from a re-analysis of the deposited data

How the results depend on the processing

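On replicates 2 to 4 no member passed an adjusted p of 0.05 in limma under any alternative run, nor 0.1 in the fit reported. The number at an unadjusted p under 0.05 was 9 and moved by over 1.5 times with array weights, which gave 18, of which 3 were negative. Replicate 2 then counted most, and 1067 of all probes were listed (18.7%, against 9.67% in the main fit). Leaving out 1 array gave 2 to 13. Without replicate 2 it was 2 of 79 tested members, against 4.09% of all probes. Without replicate 3 it was 13 of 79 (3 negative), against 9.5% of all probes. Without replicate 4 it was 9 of 76 (2 negative), against 10.9% of all probes. Without replicate 2 the listed members were Adam1a and Adam3. Of the 9, 5 were still listed without replicate 3 and 4 without replicate 4. The median member ranged from 0.017 to 0.11 over the fits that left out 1 array, and was -0.023 with replicate 1 as deposited. All 9 were kept when arrays were centred or brought to a common scale, when 1 missing value was accepted and when extreme probes were left out, and a robust variance prior kept 8, without Adam3. With replicate 1 turned 5 of the 9 were listed, with it as deposited 4, and with it turned and a dye term 3: Col19a1, Col5a1 and Col6a3 (probe 305). In the fit with a dye term the mean of Adam3 was 0.024, that of Adam9 0.13, that of Col6a3 (probe 369) 0.063 and that of Itga8 0.30, and Adam1a, listed in every other fit, had 0.34 with an unadjusted p of 0.056 in limma. No member of the 9 took the opposite sign in any fit. The share of member probes below 0 on replicate 1, 77.8%, was 77.8% after centring, 79.5% by gene and 76.9% without Adam and Adamts genes, alternatives chosen after the data were seen. No paired analysis was possible because all arrays share a single control pool. A filter on dim probes was not run, since no intensities were used. 3 arrays limit what can be detected, as does the unknown signal over background.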
